A study of Mus musculus with 21 samples.

Results

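The comparison described here is between mouse osteoblast cultures treated for 4 h with hPTH(1-31), a fragment of human parathyroid hormone used at 100 nM, and cultures given vehicle for the same time. Its 6 arrays, 3 of each group, were chosen by their treatment labels from the 21 arrays of the series. All 22180 genes with a single symbol in the platform annotation were tested. Osteoblasts are the cells that form bone, and these were primary cells released by collagenase and trypsin from the calvaria, the roof of the skull, in C57BL/6J pups 7 to 10 days of age. Cells at passage 2 were differentiated with beta-glycerophosphate and ascorbic acid from day 3 to day 10 and then spent 24 h in serum-free medium with albumin before treatment. Cells were prepared separately for each replicate. By their labels the groups differed only in the peptide. For the comparison of related peptides, 3 other analogs used at 100 nM for 4 h were taken in, with 3 arrays each: hPTH(1-34), PTH(1-36) and bPTH(3-34).

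Parathyroid hormone acts on osteoblasts through Pth1r, a G protein-coupled receptor that raises cyclic AMP through Gs and can also activate phospholipase C and protein kinase C. Cyclic AMP releases protein kinase A, which phosphorylates CREB and, by restraining the SIK kinases, frees class IIa histone deacetylases and CREB coactivators to enter the nucleus. In bone the hormone is known for raising the osteoclast-forming cytokine RANKL, for lowering the Wnt inhibitor sclerostin, and for building bone when given in pulses. The shortened carboxyl end of hPTH(1-31) is known, from rat osteosarcoma cells, to leave cyclic AMP stimulation largely in place while protein kinase C activation is much reduced.

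RNA was hybridised to Affymetrix Mouse Gene 2.0 ST arrays, and a value is the deposited signal of 1 transcript cluster (the probe group for 1 transcript), read here as log2, so that 1 unit is a 2-fold difference. The 6 arrays had medians between 4.41 and 4.45 over the genes tested. Across genes, arrays correlated at r = 0.992 within the hPTH(1-31) group and at 0.991 to 0.992 within vehicle, and at 0.986 to 0.987 between the groups. Each array measured a whole culture, so fewer cells of a type and less RNA per cell cannot be told apart. Among 10 osteoblast markers, Col1a1 (type I collagen) had a signal of 13.2 with hPTH(1-31) and 13.2 with vehicle, and 2 had a low signal, among them Bglap (osteocalcin) at 3.09 with hPTH(1-31) and 3.73 with vehicle. Their mean level was 8.33 to 8.94 on the hPTH(1-31) arrays and 8.64 to 8.85 on the vehicle arrays. Macrophage markers were present too, such as Lyz2 at 12.2 with hPTH(1-31) and 12.2 with vehicle. The mean level of all 24 macrophage and osteoclast markers was 8.07 to 8.14 on the hPTH(1-31) arrays and 8.02 to 8.19 on the vehicle arrays.

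Of the 22180 genes, 1930 (8.7%) were called, which means an adjusted p under 0.05 in limma's moderated test over all genes. Of these, 971 (4.38% of all genes) were higher with hPTH(1-31) and 959 (4.32%) were lower. Large changes were mostly upward: 189 genes rose and 67 fell at least 2-fold, and 45 rose and 1 fell at least 4-fold. The 3 hPTH(1-31) arrays lay beyond all 3 vehicle arrays for 22.1% of all genes, and for 1903 of the 1930 called. Calls were rare among dim genes. Where the vehicle mean was under 4, 1.3% of 9925 genes were called, against 9.78% of 5152 genes between 4 and 6, 18.3% of 4854 between 6 and 8, and 18.1% of 2249 at 8 or more. A change in a dim gene may therefore have gone uncalled. Counts of called members of gene lists are to be read beside these shares and those over all genes. As the lists were chosen with earlier results of these data known, a higher share describes a list and does not test it. At the median over all genes, the 95% interval of a change reached 0.30 log2 units to either side.

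Calls near the threshold depended on single arrays. When each of the 6 arrays was left out in turn, 1071 of the 1930 genes (587 up and 484 down) stayed called in all 6 fits, and so did 250 of the 256 genes changed at least 2-fold. Below, "firm" marks a gene called with all arrays and in each of these 6 fits, and unless a loss is stated every gene given as risen or fallen is firm.

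**Figure D1:**
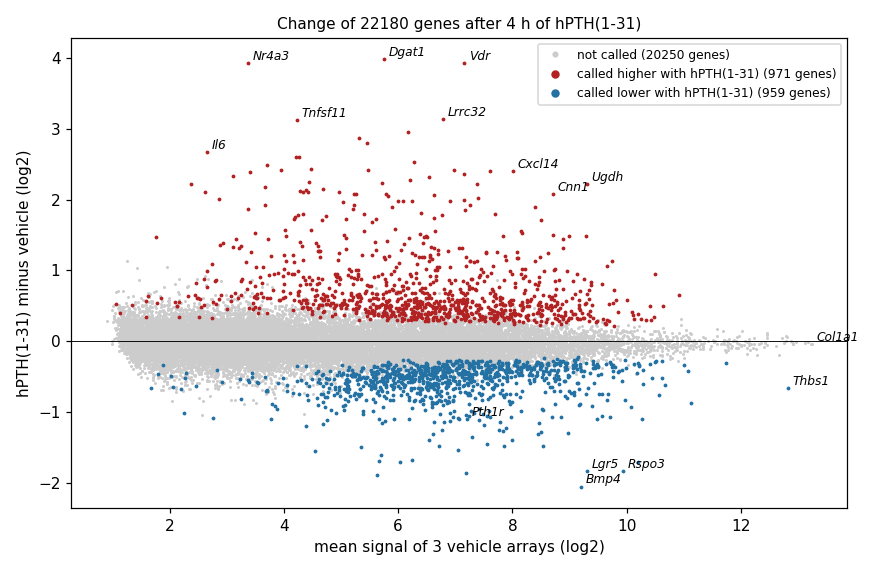
Change in log2 units (vertical axis, hPTH(1-31) minus vehicle) against the mean signal of the 3 vehicle arrays (horizontal axis, log2) for 22180 genes, with 971 genes called higher in red, 959 called lower in blue and the others in grey. The largest changes are upward, and few genes with a vehicle mean under 4 are called.

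The 3 highest changes were those of Dgat1 and the nuclear receptors Nr4a3 and Vdr. Dgat1, which completes triacylglycerol synthesis, read 9.81, 9.64 and 9.77 on the hPTH(1-31) arrays, against 6.00, 5.63 and 5.65 on the vehicle arrays. Its arrays were far apart, a 15.8-fold rise (adjusted p = 1.91e-14). The orphan nuclear receptor Nr4a3 read 7.29, 7.17 and 7.43 on the hPTH(1-31) arrays, against 3.17, 3.82 and 3.12 on the vehicle arrays, and Nr4a2, its relative, read 9.17, 8.95 and 9.24 on the hPTH(1-31) arrays, against 6.55, 6.06 and 5.89 on the vehicle arrays. Both were clear of vehicle on every array, by +3.93 ± 0.19 and +2.95 ± 0.15 log2 units (± SE, adjusted p = 7.87e-11 and 1.44e-10). The vitamin D receptor Vdr read 11.14, 11.05 and 11.05 on the hPTH(1-31) arrays, against 7.24, 7.24 and 7.00 on the vehicle arrays. Its groups were nearly as far apart as those of Dgat1, 15.1-fold (adjusted p = 2.22e-14). After Dgat1, Nr4a3 and Vdr came Lrrc32, a surface anchor for latent TGF-beta (+3.14 ± 0.10), Tnfsf11, which encodes RANKL (+3.12 ± 0.19), and, below Nr4a2, Smim3, a small membrane protein (+2.86 ± 0.12), Cbarp, a regulator of voltage-gated calcium channels (+2.80 ± 0.16), and the cytokine Il6 (+2.67 ± 0.25). Il6 had the widest spread of these, at 4.66, 5.74 and 5.56 on the hPTH(1-31) arrays, against 2.69, 2.41 and 2.86 on the vehicle arrays, with hPTH(1-31) replicate 1 about 1 unit below the other 2 arrays and still above vehicle.

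The rest of the 25 highest genes rose between 4.76-fold (Shisal1) and 6.08-fold (Cd24a, a surface glycoprotein). Among them were the deiodinases Iyd (+2.60 ± 0.21) and Dio2 (+2.42 ± 0.17), where Iyd recovers iodide from iodotyrosines and Dio2 makes active thyroid hormone. Dock9, an exchange factor for the small GTPase Cdc42 (+2.53 ± 0.08), the kinesin Kif21a (+2.43 ± 0.14) and the adhesion molecule Nectin1 (+2.42 ± 0.12) rose too. So did Gfpt2, the entry enzyme of the hexosamine pathway (+2.41 ± 0.11), the chemokine Cxcl14 (+2.41 ± 0.13), the potassium channel Kcnk10 (+2.39 ± 0.20) and the secreted peptide Prok2 (+2.33 ± 0.25). Cntfr, the receptor subunit for ciliary neurotrophic factor (+2.35 ± 0.15), Pmvk, phosphomevalonate kinase of the mevalonate pathway (+2.31 ± 0.12), and Icosl, a costimulatory ligand for T cells (+2.27 ± 0.11), completed the functions that can be named. For Cd24a and Dio2 a second, dimmer transcript cluster did not move in the same way, by +0.30 and +0.15 log2 units, and neither of these was called.

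The 25 lowest genes included ligands and receptors of the BMP and Wnt pathways, whose full lists, given further on, were called in both directions. Bmp4, a bone morphogenetic protein, read 7.22, 7.43 and 6.82 on the hPTH(1-31) arrays, against 9.27, 9.36 and 8.98 on the vehicle arrays. The groups were more than 1.5 units apart at their closest, a 4.13-fold fall (adjusted p = 3.10e-08), and Bmp2 fell by 1.70 ± 0.13. The Wnt receptor Fzd5 (-1.85 ± 0.08), the R-spondins Rspo3 (-1.83 ± 0.08) and Rspo2 (-1.47 ± 0.10), which strengthen Wnt signals, and their receptor Lgr5 (-1.83 ± 0.07) fell. Other genes in this set were the p38 kinase activator Map2k6 (-1.68 ± 0.12), the vasodilator peptide Adm (-1.67 ± 0.19), Cemip, which takes part in hyaluronan breakdown (-1.70 ± 0.11), the tendon transcription factor Scx (-1.53 ± 0.15) and the homeobox factor Meox2 (-1.31 ± 0.10). Tnfrsf11b, which encodes osteoprotegerin, the decoy that binds RANKL, fell by 1.47 ± 0.15. The receptors Agtr1b for angiotensin (-1.49 ± 0.15) and Lpar4 for lysophosphatidic acid (-1.26 ± 0.11) and the insulin receptor substrate Irs1 (-1.29 ± 0.08) were also lower. Trav9d-3, a T cell receptor gene segment, was lower by 1.60 ± 0.32 through its brightest cluster, while its dimmest cluster gave +0.10. The second cluster of Irs1 gave -0.54 and was not called (adjusted p = 0.0743).

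**Figure D2:**
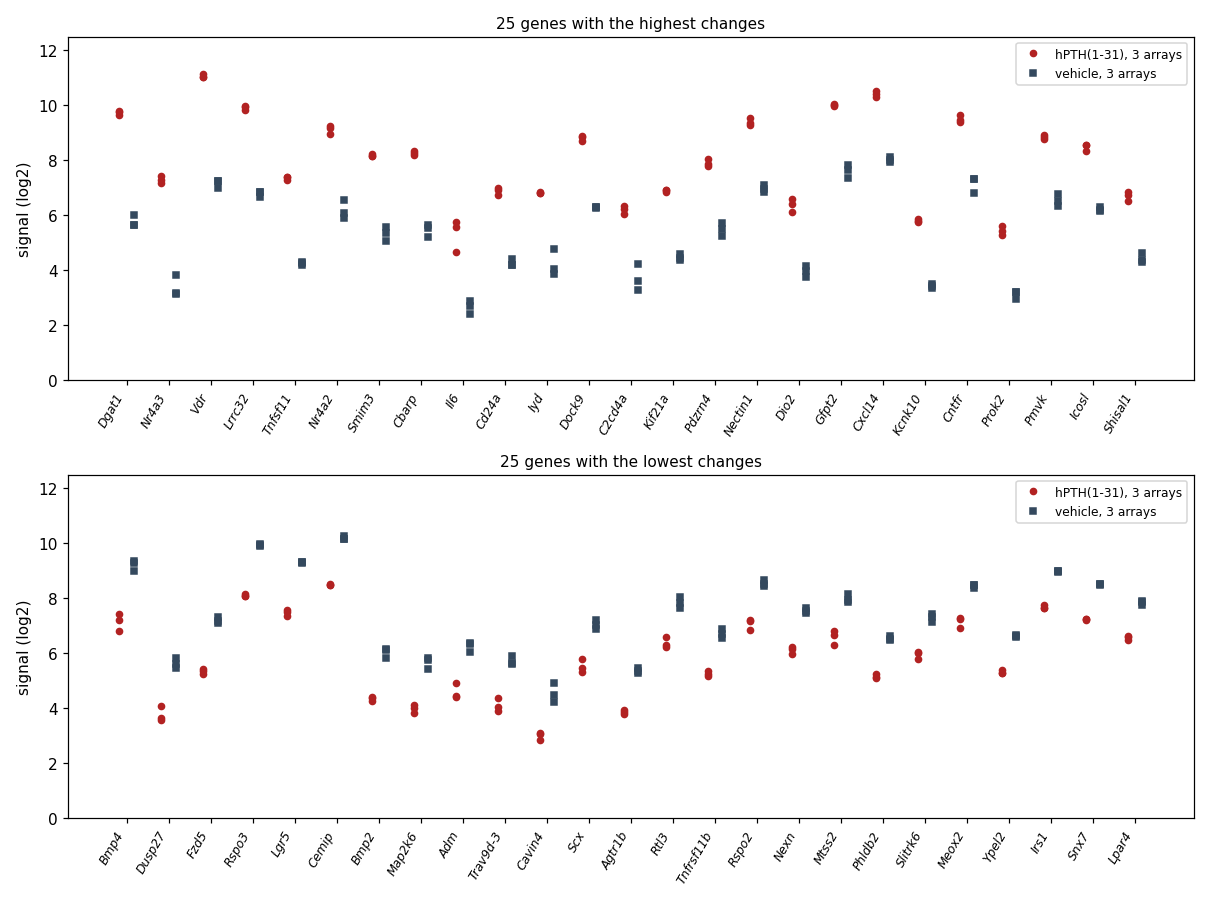
Signal (log2, vertical axis) on each array for the 25 highest (upper panel) and 25 lowest (lower panel) changes, with the 3 hPTH(1-31) arrays as red circles to the left of the 3 vehicle arrays as dark squares. No hPTH(1-31) array overlaps a vehicle array in any of these genes, since that was a condition of the choice, and Il6 shows the widest spread among its hPTH(1-31) arrays.

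Genes of the receptor and the cyclic AMP pathway moved at several levels. Of 92 measured members, 17 rose (13 firm) and 7 fell (3 firm), against 4.38% up and 4.32% down over all genes. In all 26.1% were called, against 18.3% of genes with a vehicle mean between 6 and 8 (list median 6.16). The receptor gene Pth1r read 6.20, 6.17 and 5.95 on the hPTH(1-31) arrays, against 7.20, 7.30 and 7.12 on the vehicle arrays. All hPTH(1-31) arrays were lower, by 1.10 ± 0.12 log2 units (adjusted p = 5.07e-06). Ramp3, a membrane protein that associates with several G protein-coupled receptors, read 6.19, 6.25 and 5.98 on the hPTH(1-31) arrays, against 4.44, 4.42 and 4.16 on the vehicle arrays. It rose 3.48-fold (adjusted p = 1.09e-07). Among the 17 genes of G proteins and adenylyl cyclases, Gnal, a Gs-like subunit, rose at a low signal (+0.85 ± 0.18) and the inhibitory subunit Gnai1 fell by 0.60 ± 0.10.

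Phosphodiesterases, which destroy cyclic nucleotides, were called in 6 of 18 cases (33.3%, against 8.7% over all genes), all upward, with 5 firm. Pde10a read 7.42, 7.27 and 7.36 on the hPTH(1-31) arrays, against 5.32, 5.17 and 5.31 on the vehicle arrays. This was a 4.24-fold rise (adjusted p = 4.95e-11). The cyclic AMP enzymes Pde3b (+1.52 ± 0.11), Pde7b (+1.14 ± 0.14), Pde4b (+0.91 ± 0.14) and Pde4d (+0.79 ± 0.13) followed. Downstream, 5 of 14 CREB partners, SIK kinases and class IIa deacetylases rose, all firm, and none was called lower. This is 35.7%, against 8.7% over all genes and 18.3% for a vehicle mean between 6 and 8 (median of the 14, 7.44). The 5 were Hdac4 (+1.27 ± 0.10), Sik1 (+1.19 ± 0.11), Crem (+1.11 ± 0.12), Sik3 (+1.02 ± 0.08) and Sik2 (+0.62 ± 0.11), where Crem makes cyclic AMP-inducible repressors. Among 13 protein kinase A subunits, inhibitors and anchors, only Akap2, an anchor, was firm (+0.68 ± 0.09). Of 18 RGS proteins, which switch G proteins off, Rgs4 fell by 0.98 ± 0.18. Rgs2 read 7.58, 7.41 and 7.50 on the hPTH(1-31) arrays, against 6.92, 7.20 and 7.02 on the vehicle arrays, and its call at +0.45 ± 0.11 was lost without hPTH(1-31) replicate 1 and without vehicle replicate 1 or 3, with adjusted p up to 0.0828. Its second, dimmer cluster gave -0.09.

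Transcription factors of the early response moved in both directions. All 3 NR4A receptors rose, Nr4a1 by +1.98 ± 0.16. Of 6 FOS and JUN members, 3 rose: Fosl2 (+1.02 ± 0.07), Junb (+0.90 ± 0.12) and Fos (+0.65 ± 0.14), while Jun changed by +0.22 and was not called. Cebpb (+1.42 ± 0.14) and Cebpd (+0.66 ± 0.14), factors of inflammation and fat cell formation, rose, as did Nfil3 (+1.28 ± 0.12), a repressor that competes at the sites of the clock output factor Dbp, which fell by 1.07 ± 0.16. Of 21 EGR and KLF zinc finger factors, 2 rose (1 firm) and 3 fell (1 firm), with a median change of -0.10. In all 23.8% were called, against 8.7% over all genes. Klf9 rose (+0.46 ± 0.10) and Klf12 fell by 0.71 ± 0.15, while the call of Egr1 (-0.45) was kept in 3 of the 6 fits. Creb3l2, a factor of the secretory pathway (+1.18 ± 0.13), and Nfe2l2, the regulator of the antioxidant response (+0.87 ± 0.09), also rose. Over all 46 measured bZIP factors 11 rose (9 firm) and 4 fell (2 firm). The share was 32.6% in all, against 8.7% over all genes and 18.3% for a vehicle mean between 6 and 8 (list median 6.42). Among other nuclear receptors, Ppard (+1.07 ± 0.09) and Rara (+0.76 ± 0.13) rose, and the thyroid receptor Thrb fell by 0.91 ± 0.14, Pparg by 0.82 ± 0.12 and the glucocorticoid receptor Nr3c1 by 0.45 ± 0.09. Of 11 clock genes, Arntl (+0.93 ± 0.10) and Cry1 (+0.69 ± 0.14) rose and Per3 fell by 0.82 ± 0.12.

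Since CREB binds the cyclic AMP response element, promoters were searched for it in RefSeq sequence of GRCm38.p6, from 250 bases before to 50 bases after each gene's start. The full site is TGACGTCA and the 5-letter shorter form is TGACG, read on both strands. A full site reads the same on both strands and therefore counts also as 2 shorter forms. The promoters of the NR4A genes, Dio2 and Has1 are printed because these genes rose together and their windows hold such sites. Capitals mark the sites.
Nr4a1, chr15:101266596-101266895, plus strand: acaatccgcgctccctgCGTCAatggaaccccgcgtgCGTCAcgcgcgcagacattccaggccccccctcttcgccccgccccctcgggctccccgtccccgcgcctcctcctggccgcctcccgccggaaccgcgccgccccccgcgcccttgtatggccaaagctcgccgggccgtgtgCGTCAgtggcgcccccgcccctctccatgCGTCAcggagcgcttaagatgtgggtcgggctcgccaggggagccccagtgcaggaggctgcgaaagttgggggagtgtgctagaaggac
Nr4a2, chr2:57123954-57124253, minus strand: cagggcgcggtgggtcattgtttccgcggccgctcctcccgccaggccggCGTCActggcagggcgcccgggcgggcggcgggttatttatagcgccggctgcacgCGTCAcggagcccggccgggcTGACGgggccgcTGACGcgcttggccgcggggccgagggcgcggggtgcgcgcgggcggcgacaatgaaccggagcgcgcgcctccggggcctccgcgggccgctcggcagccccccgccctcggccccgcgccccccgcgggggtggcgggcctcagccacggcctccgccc
Nr4a3, chr4:48045055-48045354, plus strand: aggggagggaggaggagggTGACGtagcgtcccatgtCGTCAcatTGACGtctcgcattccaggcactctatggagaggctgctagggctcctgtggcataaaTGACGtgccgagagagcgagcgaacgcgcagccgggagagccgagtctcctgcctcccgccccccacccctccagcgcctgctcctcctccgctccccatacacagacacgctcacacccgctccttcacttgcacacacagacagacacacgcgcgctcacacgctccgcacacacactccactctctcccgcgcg
Dio2, chr12:90738989-90739288, minus strand: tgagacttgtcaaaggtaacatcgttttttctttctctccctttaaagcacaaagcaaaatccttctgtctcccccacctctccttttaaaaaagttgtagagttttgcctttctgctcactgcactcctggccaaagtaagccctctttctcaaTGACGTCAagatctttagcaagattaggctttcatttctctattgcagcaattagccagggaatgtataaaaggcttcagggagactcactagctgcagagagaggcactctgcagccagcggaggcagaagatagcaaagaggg
Has1, chr17:17855139-17855438, minus strand: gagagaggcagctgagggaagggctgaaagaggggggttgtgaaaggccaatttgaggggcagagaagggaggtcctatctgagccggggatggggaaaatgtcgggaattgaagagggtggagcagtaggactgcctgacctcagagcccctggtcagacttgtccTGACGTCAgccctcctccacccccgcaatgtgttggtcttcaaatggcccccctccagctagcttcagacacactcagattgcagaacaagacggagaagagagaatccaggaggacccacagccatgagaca
Each NR4A window held 4 shorter forms and no full site. Dio2 held a full site at -95 and Has1 at -83, where positions give the first base relative to the start. Among 14336 tested genes with 1 listed promoter, 2.42% held a full site and 24.1% a shorter form. For genes with a vehicle mean of at least 6 the shares were 3.36% and 34.7%. For the 617 of the 14336 genes that were called higher, at any level, they were 4.7% and 39.2%, and for the 571 called lower 1.23% and 25.2%. Of 110 genes that rose at least 2-fold, 7 (6.36%) held a full site. None of 40 that fell at least 2-fold did, but 40 genes are too few to tell this from the 2.42% over all genes. Neither form lay in the windows of Vdr, Tnfsf11 or Fosl2. These are matches of letters and were not tested as binding sites.

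Genes through which osteoblasts regulate osteoclasts moved in both directions. Of 27 measured genes, 6 rose (all firm) and 4 fell (2 firm), 37% in all against 8.7% over all genes. Tnfsf11 read 7.39, 7.29 and 7.39 on the hPTH(1-31) arrays, against 4.18, 4.28 and 4.25 on the vehicle arrays, and Tnfrsf11b read 5.34, 5.23 and 5.15 on the hPTH(1-31) arrays, against 6.70, 6.87 and 6.56 on the vehicle arrays. The ligand was higher and its decoy lower on every hPTH(1-31) array (adjusted p = 2.14e-09 and 2.40e-06). The cytokine Tnf (+1.48 ± 0.16), the receptor Il17ra (+1.16 ± 0.10) and the monocyte chemokines Ccl2 (+1.05 ± 0.19) and Ccl7 (+0.92 ± 0.16) rose. Il34, a ligand of the CSF1 receptor, fell by 0.97 ± 0.10. Csf1, the other ligand, changed by -0.30, a call kept in 1 of the 6 fits.

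Of 27 bone matrix and mineral genes, 1 rose and 1 fell, a share of 7.41% against 8.7% over all genes. Their median vehicle mean was 11.77, and of all genes with a vehicle mean of 8 or more 18.1% were called. Col1a1 read 13.19, 13.21 and 13.21 on the hPTH(1-31) arrays, against 13.25, 13.21 and 13.28 on the vehicle arrays, with an interval of the change from -0.17 to 0.09. The alkaline phosphatase Alpl, which frees phosphate for mineral, read 9.67, 9.47 and 9.37 on the hPTH(1-31) arrays, against 9.02, 9.03 and 8.75 on the vehicle arrays. It rose 1.49-fold (adjusted p = 0.000961). The osteoblast factor Sp7 read 5.47, 5.29 and 5.13 on the hPTH(1-31) arrays, against 6.14, 5.69 and 5.98 on the vehicle arrays and fell by 0.64 ± 0.13 (adjusted p = 0.00411). The osteocyte genes Pdpn (+0.94 ± 0.09) and Gja1, a gap junction protein (+0.80 ± 0.09), rose. Ibsp, bone sialoprotein, chosen after its values were seen, read 9.25, 7.39 and 5.98 on the hPTH(1-31) arrays, against 7.28, 6.52 and 6.15 on the vehicle arrays, a spread of over 3 units among the hPTH(1-31) arrays, and its change of +0.89 was not called (adjusted p = 0.467). In both groups replicate 1 had its highest value and replicate 3 its lowest. Bglap read 3.51, 3.14 and 2.61 on the hPTH(1-31) arrays, against 3.96, 3.62 and 3.62 on the vehicle arrays and was not called (adjusted p = 0.118). Sost, sclerostin, averaged 3.58 with hPTH(1-31) and 3.51 with vehicle, and the collagenase Mmp13 averaged 10.9 and 10.9, with no call for either. The vitamin D-degrading enzyme Cyp24a1, a classical target of Vdr, changed by -0.13 and was not called.

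BMP and TGF-beta genes were called in both directions, with 8 of 59 up (6 firm) and 11 down (7 firm). That is 32.2% in all, against 8.7% over all genes and 18.3% for a vehicle mean between 6 and 8 (list median 6.78). Of 18 ligands 5 fell (4 firm) and 1 rose: besides Bmp4 and Bmp2, Tgfb2 fell by 0.47 ± 0.09 and Tgfb3 by 0.32 ± 0.07, while Inhba, an activin subunit, rose (+0.93 ± 0.12). The BMP antagonist Grem1 read 8.18, 8.22 and 8.24 on the hPTH(1-31) arrays, against 6.29, 6.16 and 6.26 on the vehicle arrays. It rose 3.94-fold (adjusted p = 7.02e-11), while Bmp2 and Bmp4, ligands that gremlin binds, fell. The antagonist Fst fell by 0.49 ± 0.09, and Thbs1, which can activate latent TGF-beta, fell by 0.66 ± 0.07. Latent TGF-beta carriers Lrrc32 and Ltbp1 (+0.59 ± 0.10) rose, with Smad3 (+0.60 ± 0.10) and the coreceptor Tgfbr3 (+0.58 ± 0.08). Id3, a target of BMP signals, fell by 0.74 ± 0.09.

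Wnt genes moved in both directions, also within a family. Of 63, 9 rose (7 firm) and 11 fell (10 firm), 31.7% in all against 8.7% over all genes. Among 16 receptors and coreceptors, 4 rose and 4 fell, all firm. Fzd6 read 7.48, 7.36 and 7.64 on the hPTH(1-31) arrays, against 6.21, 6.25 and 6.28 on the vehicle arrays, and Fzd5 read 5.42, 5.36 and 5.25 on the hPTH(1-31) arrays, against 7.18, 7.11 and 7.30 on the vehicle arrays. The first was higher and the second lower on every hPTH(1-31) array (adjusted p = 3.49e-08 and 2.23e-11). Ror1 (+1.31 ± 0.12), Fzd1 (+0.39 ± 0.08) and Lrp6 (+0.37 ± 0.08) were on the rising side, and Fzd8 (-0.98 ± 0.09), Fzd2 (-0.83 ± 0.11) and Ror2 (-0.49 ± 0.10) on the falling side. In the R-spondin system Lgr4 rose (+0.92 ± 0.09) as Lgr5 fell. Lgr5 read 7.36, 7.49 and 7.56 on the hPTH(1-31) arrays, against 9.31, 9.31 and 9.29 on the vehicle arrays, with the vehicle arrays within 0.02 units of each other. The intracellular brakes Nkd1 (-1.14 ± 0.11), Dact1 (-1.11 ± 0.09) and Nkd2 (-0.54 ± 0.10) fell, and the transcription factor Lef1 rose (+1.21 ± 0.18). The second cluster of Dact1 gave -0.27 and was not called. Of 17 Wnt ligands only Wnt11 rose firmly (+0.65 ± 0.14), and of 11 secreted inhibitors none was firm.

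Other growth factor systems showed 9 of 65 genes up (6 firm) and 9 down (7 firm). The share was 27.7% in all, against 8.7% over all genes and 18.3% for a vehicle mean between 6 and 8 (list median 6.18). The receptors Egfr (-0.74 ± 0.08), Pdgfrb (-0.83 ± 0.09) and Erbb2 (-0.58 ± 0.12) fell, as did the ligand Nrg1 (-0.66 ± 0.13). Fgf2 (+0.61 ± 0.12), Fgfr1 (+0.50 ± 0.10), the scatter factor receptor Met (+0.91 ± 0.16), Vegfa (+0.75 ± 0.12), Igfbp5 (+0.49 ± 0.07) and the EGF receptor brake Errfi1 (+0.59 ± 0.08) rose. The MAP kinase phosphatase Dusp1 rose (+0.88 ± 0.10) with Dusp10 (+0.64 ± 0.12) and Dusp14 (+0.68 ± 0.10), and Map2k1 rose (+0.65 ± 0.10) where Map2k6 fell. In Notch signalling, 3 of 17 genes (17.6%) fell and none rose. Their median vehicle mean was 6.01, and of all genes 9.78% between 4 and 6 and 18.3% between 6 and 8 were called. Those that fell were the ligand Jag1 (-1.15 ± 0.08), the coactivator Maml2 (-0.98 ± 0.09) and the receptor Notch3 (-0.63 ± 0.13). Ephrin receptors Ephb3 (-0.84 ± 0.08), Epha3 (-0.71 ± 0.07) and Epha7 (-0.56 ± 0.11) fell, and the ligand Efna1 rose (+0.51 ± 0.10).

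Several genes that make hyaluronan and its sugar precursors rose. The list counted here held 16 measured genes and also took in hyaluronan binding and breakdown and the lubricant Prg4. Of these 16, 7 rose (6 firm), 1 fell and 8 were not called. The share called was 50%, against 8.7% over all genes and 18.3% for a vehicle mean between 6 and 8 (list median 7.15). The hyaluronan synthase Has2 read 9.36, 9.47 and 9.44 on the hPTH(1-31) arrays, against 7.35, 7.39 and 7.48 on the vehicle arrays. The rise was 4.05-fold (adjusted p = 4.95e-11). Ugdh, which makes UDP-glucuronic acid, read 11.56, 11.41 and 11.58 on the hPTH(1-31) arrays, against 9.34, 9.24 and 9.33 on the vehicle arrays, and Uap1, which makes UDP-N-acetylglucosamine and was named after its values were seen, read 9.57, 9.53 and 9.70 on the hPTH(1-31) arrays, against 7.36, 7.41 and 7.38 on the vehicle arrays. Both were higher on every hPTH(1-31) array, and Uap1 was not among the 16. Other enzymes of these steps moved less or were not called, as Gfpt1, the isoenzyme of Gfpt2, gave +0.38 with a call kept in 2 of the 6 fits, and Ugp2, which makes the UDP-glucose that Ugdh uses, gave -0.10 and was not called. Has1 (+1.26 ± 0.16), the hyaluronan-binding proteoglycan Vcan (+0.73 ± 0.11) and the joint lubricant Prg4 (+1.98 ± 0.13) were also among the 7 that rose. Cemip read 8.53, 8.49 and 8.49 on the hPTH(1-31) arrays, against 10.16, 10.17 and 10.28 on the vehicle arrays and fell. Of 17 ADAMTS proteases, Adamts4 (+2.06 ± 0.12), Adamts9 (+1.06 ± 0.12) and Adamts3 (+1.03 ± 0.13) rose, and Adamts5 (-1.06 ± 0.08) and Adamts6 (-0.69 ± 0.15) fell, so that the aggrecanases Adamts4 and Adamts5 moved in opposite directions. Plaur, the urokinase receptor, rose (+1.85 ± 0.15) and was the 1 gene called among 9 of the plasminogen system. Of 19 MMPs and TIMPs, Mmp28 rose (+0.53 ± 0.11) and Mmp11 fell by 0.76 ± 0.13, though its second cluster gave -0.03. Collagen chains were nearly all uncalled, with 1 of 44 called and none firm.

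Inflammatory genes and their brakes were among those that rose. Of 17 genes of NF-kappaB and innate brakes, among them cytokine signal suppressors, 8 rose (6 firm) and none was called lower. The share was 47.1%, against 8.7% over all genes and 18.3% for a vehicle mean between 6 and 8 (list median 6.26). The 8 included Bcl3 (+1.81 ± 0.12), the NF-kappaB inhibitors Nfkbie (+0.84 ± 0.13) and Nfkbia (+0.70 ± 0.12) and Tnip3 (+0.83 ± 0.14). With them rose the suppressors Socs2 (+1.19 ± 0.16, with +0.34 and no call in its second cluster) and Socs3 (+0.78 ± 0.12). The subunits Rela (+0.18) and Rel (-0.20) were not called. Of 25 chemokine ligands outside the osteoclast list, 5 (20%, against 8.7% called over all genes) rose, 4 of them firm. They were Cxcl14, Ccl12 (+1.87 ± 0.15), Cxcl5 (+1.00 ± 0.13), Ccl11 (+0.84 ± 0.17) and Cxcl1. The call of Cxcl1 at +0.70 ± 0.20 was lost without hPTH(1-31) replicate 1 or 3 and without vehicle replicate 1 or 2 (limma adjusted p up to 0.146). Tnfaip6, which binds hyaluronan (+1.25 ± 0.14), the prostaglandin synthase Ptgs2 (+1.10 ± 0.24) and lipocalin Lcn2 (+0.64 ± 0.13) rose, and the pentraxin Ptx3 fell by 1.07 ± 0.08. The cytokine receptors that rose included Il4ra (+1.53 ± 0.09), Il1r1 (+1.5 ± 0.10), Il18rap (+1.35 ± 0.16), Il20ra (+1.33 ± 0.22) and the shared signal chain Il6st (+0.66 ± 0.08). Of 78 interleukins and interleukin receptors, 10 rose (9 firm) and 2 fell (1 firm), 15.4% in all against 8.7% over all genes. Of 24 macrophage and osteoclast markers, Mmp9 alone was called (+0.39 ± 0.11). The call of Mmp9 was lost without hPTH(1-31) replicate 1 or 3 and without vehicle replicate 2 or 3, with adjusted p up to 0.192. Their part in these results was not tested.

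**Figure D3:**
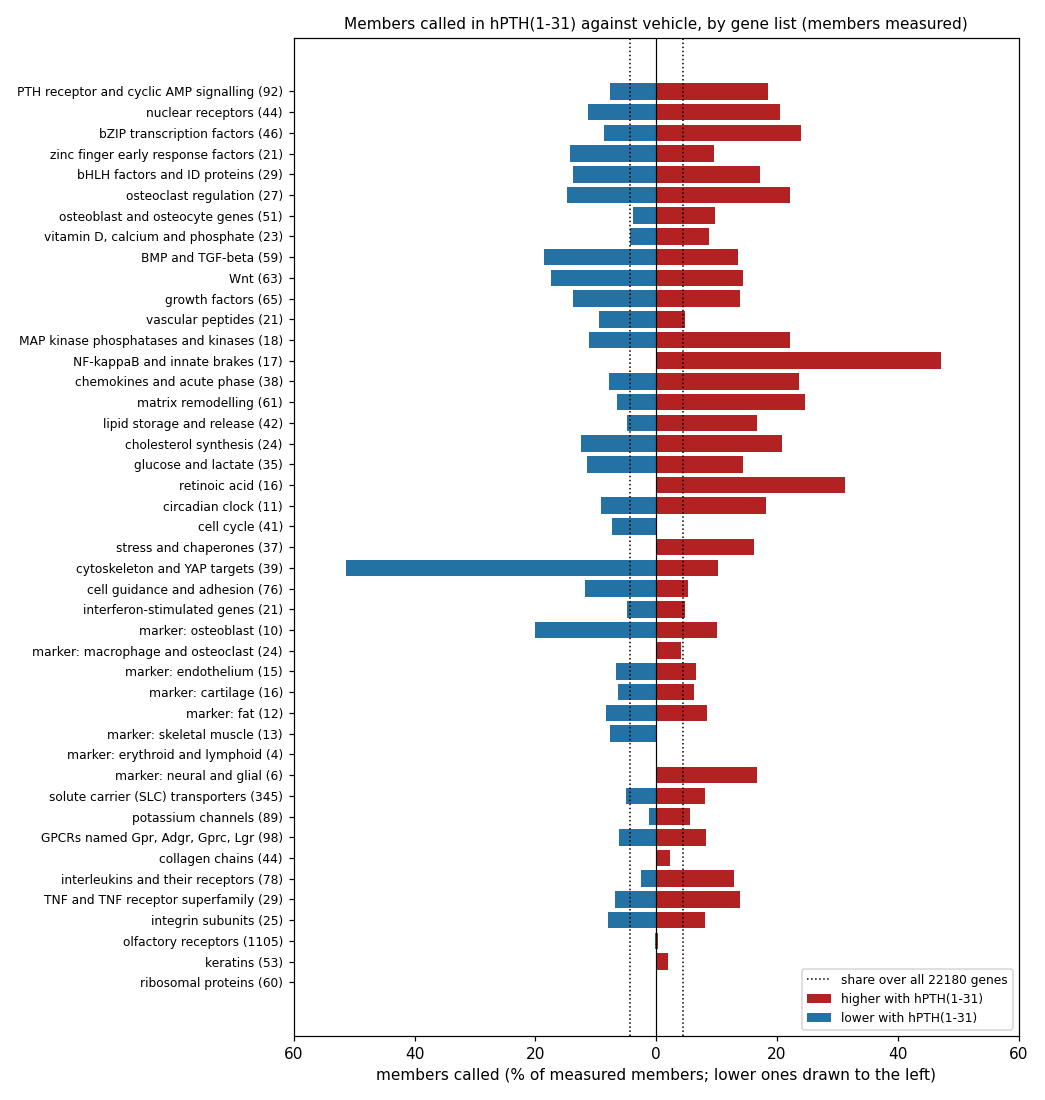
Share of measured members called (horizontal axis, percent) for each gene list, with members higher with hPTH(1-31) in red to the right and lower ones in blue to the left, the number measured in brackets, and dotted lines at the shares over all genes, 4.38% and 4.32%. NF-kappaB and innate brakes and retinoic acid genes stand out to the right, and cytoskeleton and YAP target genes to the left. The lists were chosen with earlier results of these data known, so the shares describe them and do not test them.

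Metabolic genes were called at single steps of several pathways. In lipid storage, 7 of 42 genes rose (6 firm) and 2 fell (1 firm). This is 21.4% in all, against 8.7% over all genes and 18.3% for a vehicle mean between 6 and 8 (list median 6.38). The list therefore stood out little at its level. After Dgat1 came the droplet protein Cidea (+1.86 ± 0.20), the acyl-CoA synthetase Acsl4 (+1.32 ± 0.09), Dgat2 (+0.93 ± 0.14), Agpat4 (+0.53 ± 0.08) and the lipase coactivator Abhd5 (+0.48 ± 0.10). The droplet coat protein Plin3 fell by 0.54 ± 0.09. Pmvk read 8.79, 8.93 and 8.83 on the hPTH(1-31) arrays, against 6.52, 6.76 and 6.33 on the vehicle arrays. Hsd17b7, another enzyme of sterol synthesis, rose by +0.68 ± 0.08, and the other calls among its 24 genes were not firm. The lactate carrier Slc16a1 read 9.05, 8.90 and 8.70 on the hPTH(1-31) arrays, against 6.92, 7.13 and 6.67 on the vehicle arrays, 3.94-fold above vehicle (adjusted p = 2.71e-09). Hexokinase Hk2 (+0.68 ± 0.14) and the glucose carrier Slc2a4 (+0.73 ± 0.15) rose, and Pdk2 (-0.75 ± 0.15) and Pck2 (-0.56 ± 0.11) fell. Retinoic acid genes were called upward in 5 of 16 cases (31.2%, against 8.7% called over all genes), all firm. They were the synthesis enzymes Rdh10 (+1.79 ± 0.13), Aldh1a3 (+1.56 ± 0.20) and Dhrs9 (+0.80 ± 0.12), the carrier Crabp2 (+1.23 ± 0.12) and the breakdown enzyme Cyp26b1 (+0.44 ± 0.10).

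Genes of the actin cytoskeleton and targets of YAP, a coactivator that responds to tension, were mostly lower. Of 39, 20 fell and 4 rose. The share called was 61.5%, against 8.7% over all genes and 18.3% for a vehicle mean between 6 and 8 (list median 7.87). But only 11 of the 20 that fell were firm, and 14 to 18 were called lower when 1 array was left out. The median change was -0.30, against -0.02 over all genes. YAP targets made 11 of these falls, of 18 measured, with 5 firm. In either direction 72.2% of these 18 were called (median vehicle mean 7.28), against the same 8.7% and 18.3%. Ccn1 and Ccn2, further targets of YAP that were counted above with the growth factors, fell too. Ccn1 read 9.26, 9.19 and 9.03 on the hPTH(1-31) arrays, against 10.05, 10.15 and 10.05 on the vehicle arrays, and Ccn2, connective tissue growth factor, read 5.96, 5.92 and 6.05 on the hPTH(1-31) arrays, against 7.01, 7.11 and 7.09 on the vehicle arrays. Both were lower on every hPTH(1-31) array (adjusted p = 2.70e-06 and 0.000258). Wwc1 (-0.85 ± 0.15), Asap1 (-0.74 ± 0.08), Amotl2 (-0.72 ± 0.08), Fjx1 (-0.67 ± 0.14) and tissue factor F3 (-0.67 ± 0.11) fell, with the adhesion and actin genes Cnn2 (-0.75 ± 0.09), Vcl (-0.60 ± 0.08), Smtn (-0.53 ± 0.09), Zyx (-0.50 ± 0.10), Tpm1 (-0.42 ± 0.08) and Actn1 (-0.31 ± 0.06). Nexilin, Nexn, an actin-binding protein among the 25 lowest, fell by 1.44 ± 0.10. Against this direction, Cnn1, smooth muscle calponin, read 10.91, 10.75 and 10.71 on the hPTH(1-31) arrays, against 8.74, 8.75 and 8.63 on the vehicle arrays. It rose 4.24-fold (adjusted p = 6.78e-12) with Synpo2 (+2.11 ± 0.12), whereas the smooth muscle actin Acta2 changed by -0.20 and was not called.

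**Figure D4:**
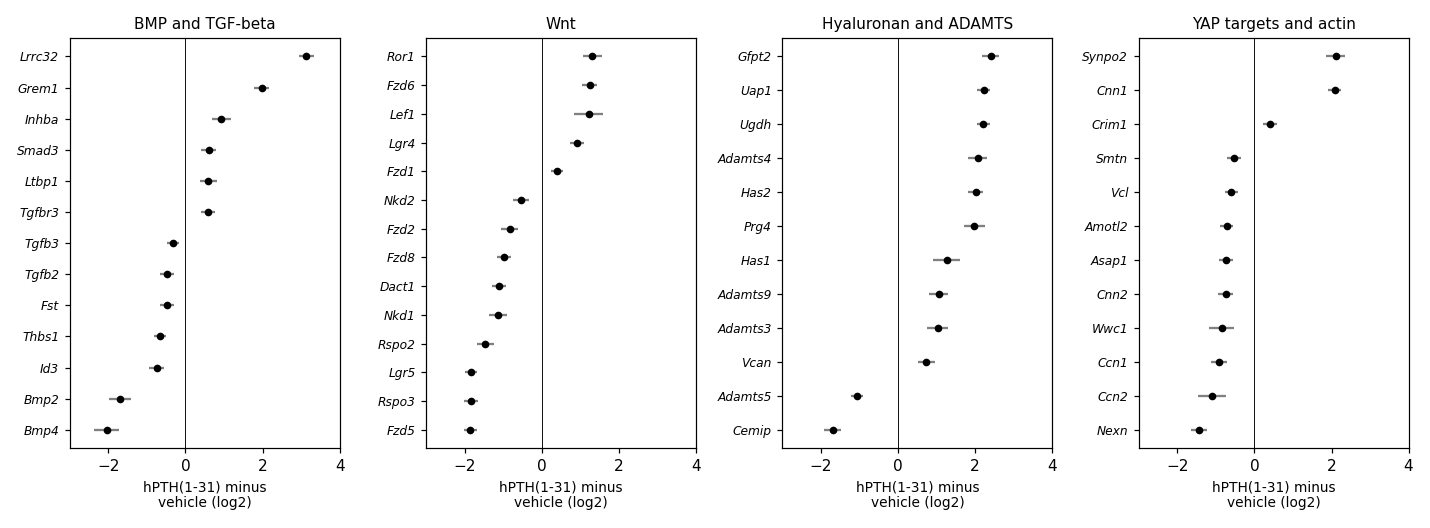
Change in log2 units (horizontal axis, hPTH(1-31) minus vehicle; points are fitted differences of 3 against 3 arrays, bars 95% intervals) for called members of 4 groups of genes. Lrrc32 and Grem1 lie opposite Bmp4 and Bmp2, Fzd6 and Ror1 opposite Fzd5, Adamts4 opposite Adamts5, and Synpo2 and Cnn1 opposite the falling actin and YAP target genes.

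Of 41 cell cycle genes 3 fell, and only Ccnd1 did so firmly (-0.36 ± 0.08), a share of 7.32% against 8.7% over all genes. Their median vehicle mean was 7.19, and of all genes with a vehicle mean between 6 and 8 18.3% were called. Of 1105 olfactory receptors 7 (0.633%) were called, none firm. Of 345 solute carriers, 28 rose (19 firm) and 17 fell (8 firm), led by Slc6a17 (+2.08 ± 0.12) and the glutamine carrier Slc38a3 (+2.00 ± 0.15). The share was 13% in all, against 8.7% over all genes and 9.78% for a vehicle mean between 4 and 6 (family median 4.79). The heat shock protein Hsph1 rose (+1.79 ± 0.09) with the cochaperone Bag3 (+0.87 ± 0.19), and the amino acid carrier Slc7a5 (+0.99 ± 0.12) rose. Marker lists of endothelium, cartilage, fat and muscle had mean levels on the hPTH(1-31) arrays of 3.71 to 3.81, 5.42 to 5.57, 4.38 to 4.58 and 3.95 to 4.01, against 3.84 to 3.88, 5.47 to 5.51, 4.47 to 4.56 and 3.96 to 4.03 with vehicle. Of these 15, 16, 12 and 13 markers, 2, 2, 2 and 1 were called, and the firm ones were Tek, an endothelial receptor (-1.02 ± 0.18), Sox6, a cartilage factor (-0.88 ± 0.11), and, for fat, Pparg and Slc2a4, given above. Neural and glial markers averaged 4.84 to 4.88 with hPTH(1-31) and 4.59 to 4.69 with vehicle, where 1 of 6 genes, the tubulin Tubb3, was called (+1.21 ± 0.19) and the other 5 were not.

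The last question was how far hPTH(1-31) differed from related peptides at the same dose and time. hPTH(1-34) has 3 more residues at the carboxyl end, PTH(1-36) has further residues there, and bPTH(3-34), a bovine fragment, lacks the first 2 residues. The 3 pairs were tested directly in the same fit, with p-values adjusted over all 3 together. Against bPTH(3-34), 1397 genes (6.3%) were called, 662 higher and 735 lower with hPTH(1-31). Against hPTH(1-34) 22 genes (0.0992%) were called, 11 in each direction, and against PTH(1-36) 35 (0.158%), 15 higher and 20 lower with hPTH(1-31). These small counts depended on the joint adjustment, which the many small p-values of the bPTH(3-34) pair make lenient. Adjusted over each pair alone, limma called 0 and 1 genes. An unadjusted limma p under 0.05 was found for 994 (4.48%) and 1257 (5.67%). Both shares lie near that which this threshold gives where no gene differs.

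Some of the genes named above were set beside bPTH(3-34) and vehicle. Dgat1 averaged 9.74 ± 0.09 with hPTH(1-31), 5.90 ± 0.07 with bPTH(3-34) and 5.76 ± 0.21 with vehicle (SD, n = 3 each). Vdr averaged 11.08 ± 0.05, 7.05 ± 0.17 and 7.16 ± 0.14 in the same order, and Lgr5 averaged 7.47 ± 0.10, 9.29 ± 0.03 and 9.30 ± 0.01. The differences of hPTH(1-31) from bPTH(3-34) were +3.84, +4.03 and -1.82 log2 units (limma adjusted p = 5.28e-14, 5.28e-14 and 1.94e-11). Of the 256 genes changed at least 2-fold against vehicle, none had an interval of its difference from bPTH(3-34) that lay wholly within 1.5-fold.

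With hPTH(1-34) and PTH(1-36) most differences were small. Over the 1930 called genes, the median absolute difference from hPTH(1-31) was 0.08 with hPTH(1-34), 0.10 with PTH(1-36) and 0.51 with bPTH(3-34). The whole 95% interval of the difference lay within 1.5-fold for 1788 of them with hPTH(1-34) and for 1749 with PTH(1-36), against 525 with bPTH(3-34). Among the 256 genes changed at least 2-fold these were 206 and 187. For the others a difference beyond 1.5-fold was not excluded, which does not by itself show that there was one. The genes were chosen through the same hPTH(1-31) arrays, which also enter these differences.

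A few responsive genes were called different between hPTH(1-31) and these 2 peptides under the joint adjustment. Of these calls only that of Map2k6 against PTH(1-36) held over its pair alone. Map2k6 averaged 3.98 ± 0.14 with hPTH(1-31), 4.60 ± 0.08 with hPTH(1-34), 4.81 ± 0.22 with PTH(1-36) and 5.66 ± 0.20 with vehicle. It was lowest with hPTH(1-31), by -0.63 (95% interval -0.87 to -0.38, limma adjusted p = 0.00447) against hPTH(1-34) and by -0.83 (-1.08 to -0.59, limma adjusted p = 0.00024) against PTH(1-36). The second held when adjusted over its pair alone (limma adjusted p = 0.033) and the first did not (limma adjusted p = 0.775). Has1 averaged 4.68 ± 0.06 with hPTH(1-31), 3.83 ± 0.17 with hPTH(1-34), 4.19 ± 0.31 with PTH(1-36) and 3.42 ± 0.22 with vehicle. Its difference from hPTH(1-34) was +0.85 (0.50 to 1.2, limma adjusted p = 0.0059, and 0.775 over the pair alone), and that from PTH(1-36) was +0.49 and not called (limma adjusted p = 0.202). Prg4 averaged 7.97 ± 0.06 with hPTH(1-31), 8.29 ± 0.14 with hPTH(1-34), 7.28 ± 0.34 with PTH(1-36) and 5.99 ± 0.11 with vehicle. It differed by +0.70 from PTH(1-36) (0.41 to 0.98, limma adjusted p = 0.00558, and 0.363 over the pair alone) and by -0.31 from hPTH(1-34), which was not called (limma adjusted p = 0.395). Under the joint adjustment over the 3 pairs, these calls of Map2k6, Has1 and Prg4 held with any 1 of the 6 arrays of the pair left out. Those of Slc2a4 (+0.66) and Hey1 (+0.54) against hPTH(1-34), and of Nkd1 (-0.49), Ier2 (+0.56), Sntb1 (+0.41) and Lcn2 (+0.49) against PTH(1-36), did not, with largest limma adjusted p-values between 0.0922 and 0.248, where Ier2, Sntb1, Nkd1 and Lcn2 were chosen after their values were seen.

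**Figure D5:**
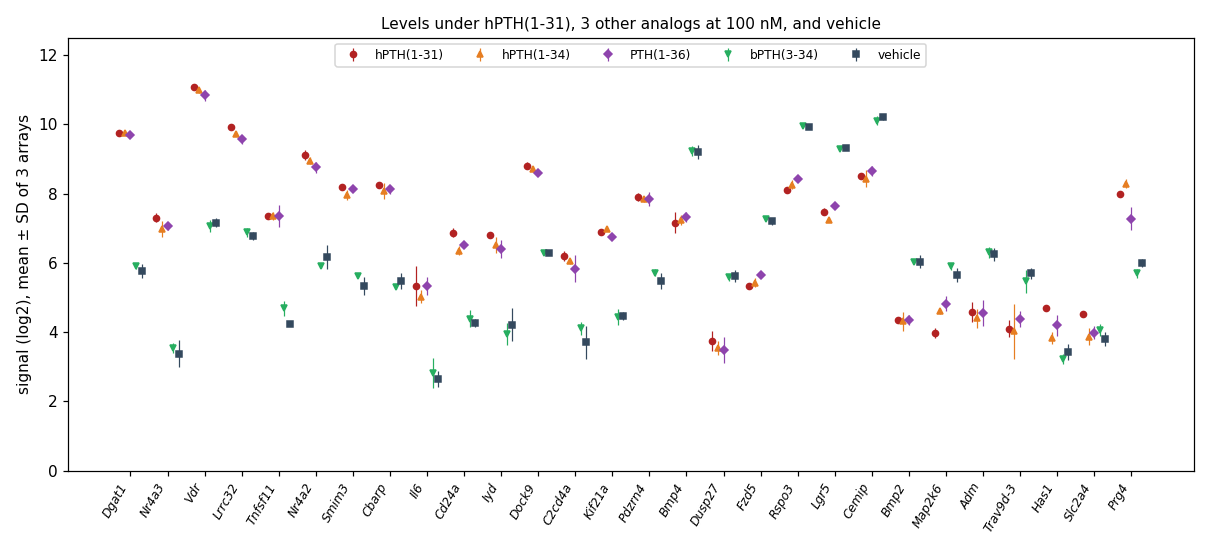
Mean signal ± SD of 3 arrays (log2, vertical axis) of genes with large changes and of Has1, Slc2a4 and Prg4 under hPTH(1-31), hPTH(1-34), PTH(1-36), bPTH(3-34) and vehicle. For Dgat1 and Vdr the points of hPTH(1-31), hPTH(1-34) and PTH(1-36) lie far above those of bPTH(3-34) and vehicle, and Map2k6 is lowest with hPTH(1-31).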

How the data were processed

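Total RNA (100 ng) was labelled with the WT Plus kit for the Mouse Gene 2.0 ST arrays, per the labels' protocols. The deposited values are probe set summaries. The authors' notes name RMA and Affymetrix Expression Console, with no versions, and the log2 scale of the deposited values is read from that method and from their range of 0.25 to 13.6, since the base is not stated. Of 41345 transcript clusters, 23521 had 1 gene symbol, 1814 several and 16010 none in the platform annotation. A gene was represented by its cluster with the highest mean over all 21 arrays, which gave 22180 genes, and 1082 of them had several clusters.

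A linear model over 21 arrays and 7 treatment groups was fitted with limma 3.58.1 in R 4.3.3 (lmFit and eBayes), with Benjamini-Hochberg adjustment over 22180 genes and calls at an adjusted p under 0.05. The 3 pairs of analogs were adjusted together. In simulated data (5 runs, 200 genes changed) 54.3%, 85.9% and 99.7% of genes changed 1.5-fold, 2-fold and 4-fold were recovered, with 5.27% false calls. The 200 changed genes are fewer than the 1930 called here, so recovery in this comparison may differ. Named genes were the 25 highest and 25 lowest changes with arrays apart, up to 8 called and 3 uncalled genes of each list role or symbol family, up to 6 in each direction for each pair, and a panel of 17 genes. The genes, lists and tests were chosen with earlier results of these data known. Alternatives covered normalization, cluster choice, filters, weights, adjustment and each array left out. The number of arrays limits the precision, and replicates are separate cell preparations per the series design.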

Additional observations from a re-analysis of the deposited data

Results flagged for a closer look

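Transcript clusters without a gene symbol were outside the comparisons above, and some of them changed. In limma's fit of all clusters, with and without symbols, 178 of the 16010 without a symbol (1.11%) were called between hPTH(1-31) and vehicle, 99 higher and 79 lower, of which 53 changed at least 2-fold, against 6.26% of clusters with 1 gene. The highest, transcript cluster 17212211, read 9.20, 9.21 and 9.33 on the hPTH(1-31) arrays, against 5.42, 5.47 and 5.56 on the vehicle arrays, a change of +3.76 (limma adjusted p = 6.61e-14). Its groups were as clearly apart as those of the highest named genes. Cluster 17234896 changed by +2.26 and read 7.22, 7.13 and 7.11, against 4.81, 5.11 and 4.77 with vehicle. Cluster 17329316 changed by +2.69 and read 6.10, 5.68 and 6.00, against 3.37, 3.42 and 2.93 with vehicle. Clusters 17475201 (-3.26), 17210777 (-2.46) and 17202283 (+2.35) had large changes with spreads of up to about 2 units within a group.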

How the results depend on the processing

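Counts of calls between hPTH(1-31) and vehicle kept within 1.5 times of 1930 under most settings, from 1443 with all transcript clusters tested (chosen after seeing the data) to 2420 of 13131 genes after a filter on dim genes. A fit of only the 6 arrays called 928 genes (536 higher and 392 lower), which still held all 256 genes changed at least 2-fold. Holm adjustment called 427 (278 and 149) and a test against 1.2-fold 575 (364 and 211). Leaving out 1 array gave 1481 to 1669 calls, 739 to 823 higher and 664 to 888 lower, and 257 to 268 changed at least 2-fold. For hPTH(1-34) the count of 22 became 0 with the pair's 6 arrays, 0 with Holm, 0 against 1.2-fold, 0 adjusted alone, and 9 to 28 with 1 array left out, the lowest without hPTH(1-31) replicate 2. For PTH(1-36) the count of 35 became 0, 0, 1 and 1 under these settings and 23 to 47 with 1 array left out, the lowest without hPTH(1-31) replicate 1. For bPTH(3-34) it became 369 with Holm, 476 against 1.2-fold and 1034 to 1129 with 1 array left out. The replicate block moved no count by over 1.5 times and gave 2179 calls (1059 higher and 1120 lower), 257 of at least 2-fold, and 23, 42 and 1610 for the 3 pairs. The reported fit leaves the replicate numbers out, as nothing in the labels ties a number to a shared preparation and the deviations of same-numbered hPTH(1-31) and vehicle arrays correlated at 0.013, 0.0133 and 0.0828, each under 0.1. Over all groups 14 of 21 arrays correlated best with arrays of their own number, with a median r of 0.0341 for the same number and -0.0129 for other numbers, which hints at a shared part. With the dimmest cluster of a gene, Trav9d-3 turned to 0.10, Rgs2 to -0.087 and Gpr171 to -0.297. Of 345 named genes that were called, 152 stayed called under all 19 alternatives and 88 lost the call with an array left out. Genes with signals under 4 were rarely called, which limits statements on uncalled dim genes. The causes of these differences were not tested.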

Other observations

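Receptors, channels and guidance molecules outside the groups above were also called. Of 98 G protein-coupled receptors named by family symbol, 8 rose (8 firm) and 6 fell (5 firm), 14.3% in all against 8.7% over all genes. Gprc5a, an orphan receptor known as retinoic acid-inducible, read 6.92, 7.14 and 6.91 on the hPTH(1-31) arrays, against 4.94, 5.21 and 4.94 on the vehicle arrays, and Gpr84, a receptor for medium-chain fatty acids, read 6.55, 6.66 and 6.30 on the hPTH(1-31) arrays, against 4.67, 4.98 and 4.56 on the vehicle arrays. Both were higher on every hPTH(1-31) array (limma adjusted p = 4.82e-08 and 8.78e-06). Gpr176, an orphan receptor, read 6.45, 6.62 and 6.50 on the hPTH(1-31) arrays, against 7.88, 7.84 and 7.58 on the vehicle arrays and fell (limma adjusted p = 7.09e-08). Gpr171 rose through its brightest cluster (+1.2), with -0.30 in its second. Of 89 potassium channel genes, 5 rose (3 firm) and 1 fell, a share of 6.74% that is no more than that over all genes. Besides Kcnk10, the accessory subunit Kcne4 (+1.58 ± 0.09) and the channel Kcnk5 (+0.88 ± 0.12) rose, and Kcna5 fell by 0.54 ± 0.10.

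Of 76 genes of cell guidance and adhesion, 4 rose (3 firm) and 9 fell (9 firm), 17.1% in all against 8.7% over all genes. Their median vehicle mean was 6.32, and of all genes with a vehicle mean between 6 and 8 18.3% were called, so the list did not stand out at its level. Semaphorins were split, as Sema6b rose (+0.66 ± 0.10) and Sema6a fell by 0.50 ± 0.11. So were their coreceptors, since Nrp1 rose (+0.52 ± 0.07) and Nrp2 fell by 0.41 ± 0.09. Of 25 integrins, Itga9 rose (+1.01 ± 0.11) and the collagen receptor subunit Itga2 fell by 0.87 ± 0.12. Of 29 genes of the TNF superfamily, 4 rose (3 firm) and 2 fell (1 firm). The share was 20.7% in all, against 8.7% over all genes and 9.78% for a vehicle mean between 4 and 6 (family median 4.32). The death receptor Tnfrsf21 was among those that rose (+1.19 ± 0.10). In calcium handling, the glycoprotein hormone Stc1 (+0.82 ± 0.15) and the calcium pump Atp2b4 (+0.58 ± 0.09) rose. Among vascular peptides and receptors, the prostaglandin receptor Ptger4 rose (+0.59 ± 0.13) and the natriuretic peptide clearance receptor Npr3 fell by 0.47 ± 0.08, beside Adm.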
